A study of Rattus norvegicus with 18 samples.

Results

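The genes described here build, attach and remodel N-glycans, and were measured in rat nucleus pulposus, the soft centre of the disc between vertebrae, at 3 ages. They are the genes that the deposited gene table assigns to the KEGG pathway term N-Glycan biosynthesis. Of 46 such genes, 44 reached an FPKM of at least 1 (fragments per kilobase, scaled to library depth) in 3 or more of 9 input libraries, among 11708 genes that did so and 18923 in the table. The 2 that did not were Man1a1, a Golgi mannosidase gene with 0.057 to 0.401 FPKM, and Mgat3, which encodes the enzyme that adds the bisecting branch, with at most 0.138 FPKM. Near that limit, B4galt2 passed with 0.752 to 1.3 FPKM, and Man2a1 passed only through its 2-month libraries, so that its lower values later follow from the rule.

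The 3 groups were rats aged 2, 10 and 20 months, with 3 input libraries each. The labels name the tissue and the age in all groups and give no strain, sex or treatment. They list 18 libraries, of which the 9 input ones, made from poly(A) RNA without immunoprecipitation, are described, while those enriched with an antibody against N6-methyladenosine are not analysed here. Whether replicates are separate animals is not stated, so p-values cover only the spread among libraries, part or all of which may be technical.

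N-glycosylation begins on dolichol, a lipid of the endoplasmic reticulum membrane, on which a sugar chain is assembled first on the cytosolic and then on the lumenal face. Oligosaccharyltransferase moves the finished chain to asparagine residues of proteins entering the lumen, glucosidases and mannosidases trim it, and Golgi enzymes add branches, fucose, galactose and sialic acid. Nucleus pulposus cells secrete a matrix rich in glycoproteins and proteoglycans, many of which carry such chains.

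Most of these genes were lower at 20 months than at 2 months, and a smaller group, led by subunits of oligosaccharyltransferase, was lower already at 10 months. At 20 against 2 months, 34 of 44 genes fell and 0 rose at an adjusted p under 0.05, where 49.6% of all genes tested fell and 18.6% rose. At 20 against 10 months, 34 fell and 0 rose, beside 53.3% and 11.4% of all genes. At 10 against 2 months, 8 fell and 2 rose, beside 11.4% and 19.0% of all genes. At an unadjusted p under 0.05, limma counted 1 rise (Alg1) at 20 against 2 months and 0 at 20 against 10 months. The share that fell was thus 77.3% in both comparisons with 20 months and 18.2% at 10 against 2 months, and these counts include Man2a1 among the falls from 2 months. The comparisons with 2 months share the 2-month libraries and are given side by side only. All p-values are limma's, adjusted by Benjamini and Hochberg over all genes tested.

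The median log2 change of the 44 genes was -0.47 at 20 against 2 months, against -0.20 for all genes, on the log2(FPKM + 1) scale used for all fold changes. It was -0.36 against -0.23 at 20 against 10 months and -0.028 against 0.040 at 10 against 2 months. Scaling by median of ratios, which centres the typical gene near no change, brought the median of all genes to -0.0020 at 20 against 2 and -3.1e-04 at 20 against 10 months. After it, 28 of the 44 genes (Man2a1 again among them) fell and 4 (Alg1, Dpm1, Ganab and Man1c1) rose at 20 against 2 months, beside 31.3% and 31.0% of all genes. At 20 against 10 months 19 fell and 3 (Ganab, Man1c1 and Mgat1) rose, beside 25.8% and 26.7%, and at 10 against 2 months 9 fell and 1 rose, beside 14.5% and 15.1%. The falls not called after it were those of Alg6, Alg9, Alg10, Stt3b, Mgat1 and Man1c1 at 20 against 2 months. At 20 against 10 months they were those of Dpm1, Dpm2, Dpm3, Alg5, Alg6, Alg9, Alg10, Rpn2, Ddost, Tusc3, Stt3b, Man1b1, Man1a2, Mogs and Ganab. The median of the 44 genes was then -0.26 and -0.12 in the comparisons with 20 months and -0.061 at 10 against 2 months. The decline at 20 months was therefore deeper than that of the median gene under both scalings, while its size depended on the scaling.

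**Figure D1:**
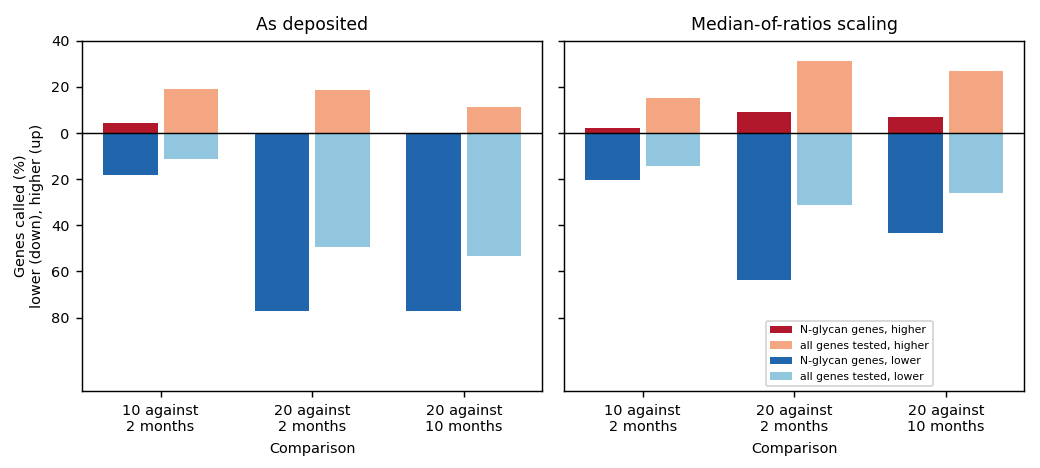
Share of genes called lower (bars down) and higher (bars up), in percent, for the 44 N-glycan synthesis genes (dark) and all 11708 genes tested (light), as deposited (left) and after median-of-ratios scaling (right). The dark bars for genes called lower at 20 against 2 months reach 77.3% and 63.6%, and the light ones 49.6% and 31.3%.

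The ranges of the libraries gave a similar picture without a model. In 34 genes (Man2a1 among them) all 20-month libraries lay below all 2-month ones, as in 51.0% of all genes, and in 35 they lay below all 10-month ones, as in 55.3%. In 0 genes did they lie above either age, as 19.4% and 12.6% of all genes did. At 10 against 2 months the ranges were apart and lower in 13 genes (again with Man2a1) and higher in 8, beside 21.5% and 32.3% of all genes. By the F test for any difference among the ages, 37 of 44 genes were called, beside 75.4% of all genes. Summed over the 44 genes, the level as deposited was 909 to 936 FPKM in the 2-month, 863 to 879 in the 10-month and 633 to 650.5 in the 20-month libraries. This sum was not rescaled, and oligosaccharyltransferase genes made up 408 of 920 FPKM on average at 2 months. In bulk RNA such as this, fewer cells of a type and less RNA per cell cannot be told apart.

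**Figure D2:**
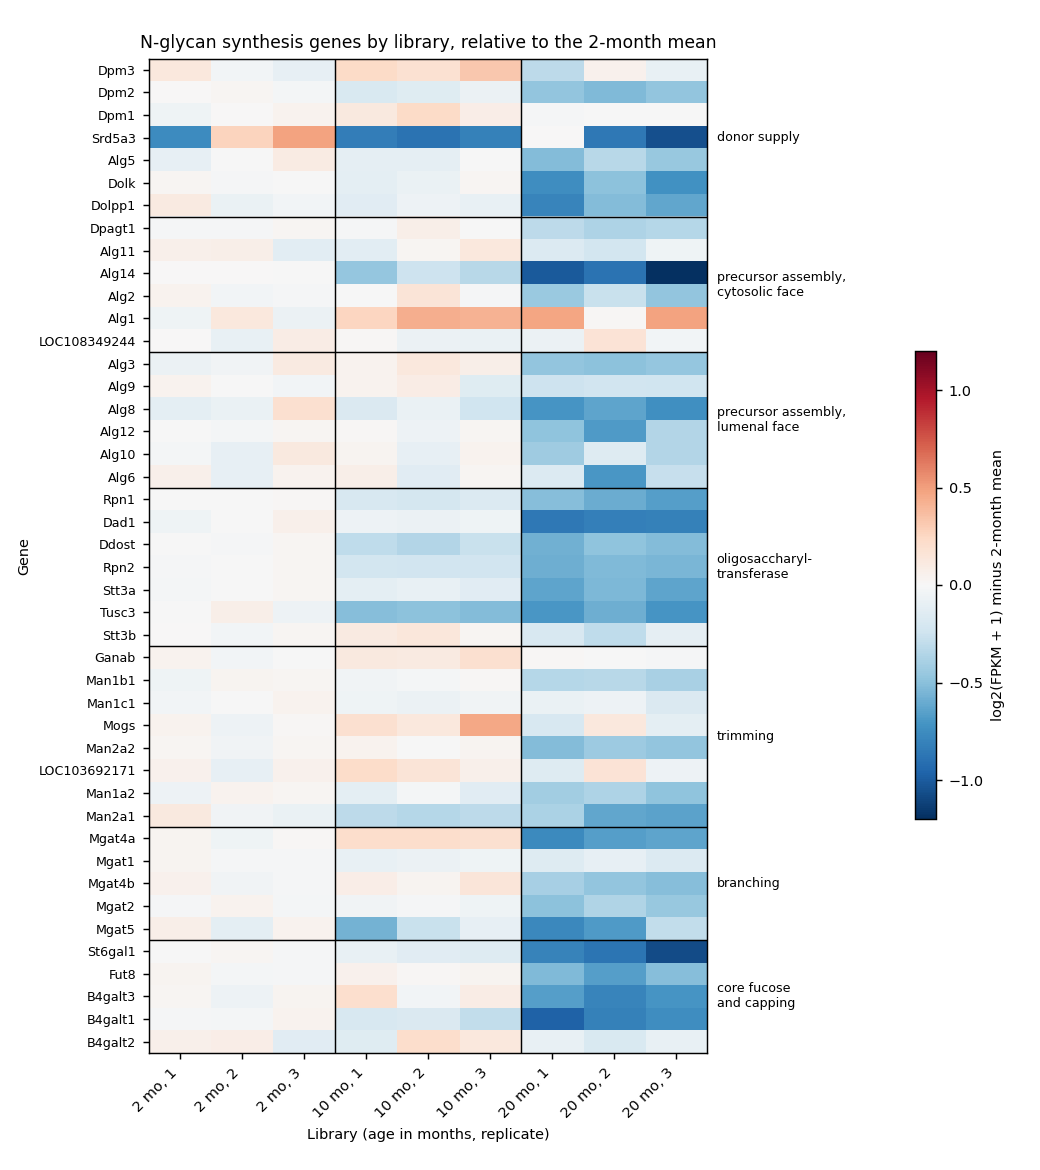
Heat map of the 44 genes (rows, grouped by role and ordered by mean level) in the 9 input libraries (columns), as log2(FPKM + 1) minus the gene's 2-month mean. Blue prevails in the 3 columns of the 20-month libraries, and in the oligosaccharyltransferase block Ddost, Rpn2, Rpn1 and Tusc3 are blue from 10 months on.

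The libraries held 3.53 to 5.04 gigabases, estimated from the ratio of FPKM to coverage, which put 22.1 to 5809 fragments on each of the 44 genes per library. For 12 genes the shallowest library had under 100 fragments. Those of 20 months stood apart. Their estimated read length was 141 against 132 bases in the other 6, and 80.1 to 80.9% of their bases lay on the listed transcripts, against 85.6 to 86.1%. Ribosomal protein genes took 20.3 to 20.9% of their summed FPKM, against 13.9 to 16.5%. Processing of the 20-month libraries and age cannot be told apart.

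Defining markers of the nucleus pulposus were abundant at all ages. All 11 listed marker genes in the table passed the filter, led by Ca3, Cd24 and the keratin gene Krt19, and their summed level was 32286 to 33665 FPKM in the 2-month, 27607 to 27903 in the 10-month and 27874 to 29185 in the 20-month libraries. This sum rests on a few very abundant genes. Of the 11 genes, 7 fell at 10 and 7 at 20 against 2 months, beside 11.4% and 49.6% of all genes, with median log2 changes of -0.41 and -0.44. As deposited, 1 of the 11 rose at 20 against 2 months, beside 18.6% of all genes. After median-of-ratios scaling 5 fell and 5 rose at 20 against 2 months, beside 31.3% and 31.0%. At 20 against 10 months 4 fell and 3 rose as deposited, beside 53.3% and 11.4%. After that scaling 1 fell and 8 rose there, beside 25.8% and 26.7%. Red blood cell markers summed to 83.9 to 94.2 FPKM, 9.78 to 10.6 and 37.0 to 42.5 at the 3 ages, with 4 of 6 tested. Macrophage markers summed to 14.8 to 15.4, 19.4 to 20.9 and 15.3 to 19.0, with 3 of 6 tested. Endothelial markers stayed at 0.287 to 0.842 in all libraries, with 0 of 4 tested. Bone markers summed to 16.3 to 17.0, 10.1 to 11.3 and 5.13 to 6.95, with 2 of 5 tested. Markers of annulus, tendon and synovium summed to 14.3 to 15.6, 5.83 to 6.35 and 7.37 to 15.8, with 4 of 5 tested. Skeletal muscle markers, 6 of 7 tested, summed to 32.5 to 35.8, 22.0 to 22.7 and 5.35 to 275.5, the highest value being that of replicate 3 of 20 months. Without that library 33 of the 44 genes fell at 20 against 2 months and 33 at 20 against 10 months. No listed marker in the table was at 0 in all libraries, and the part of these cells in the other changes was not tested.

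**Figure D3:**
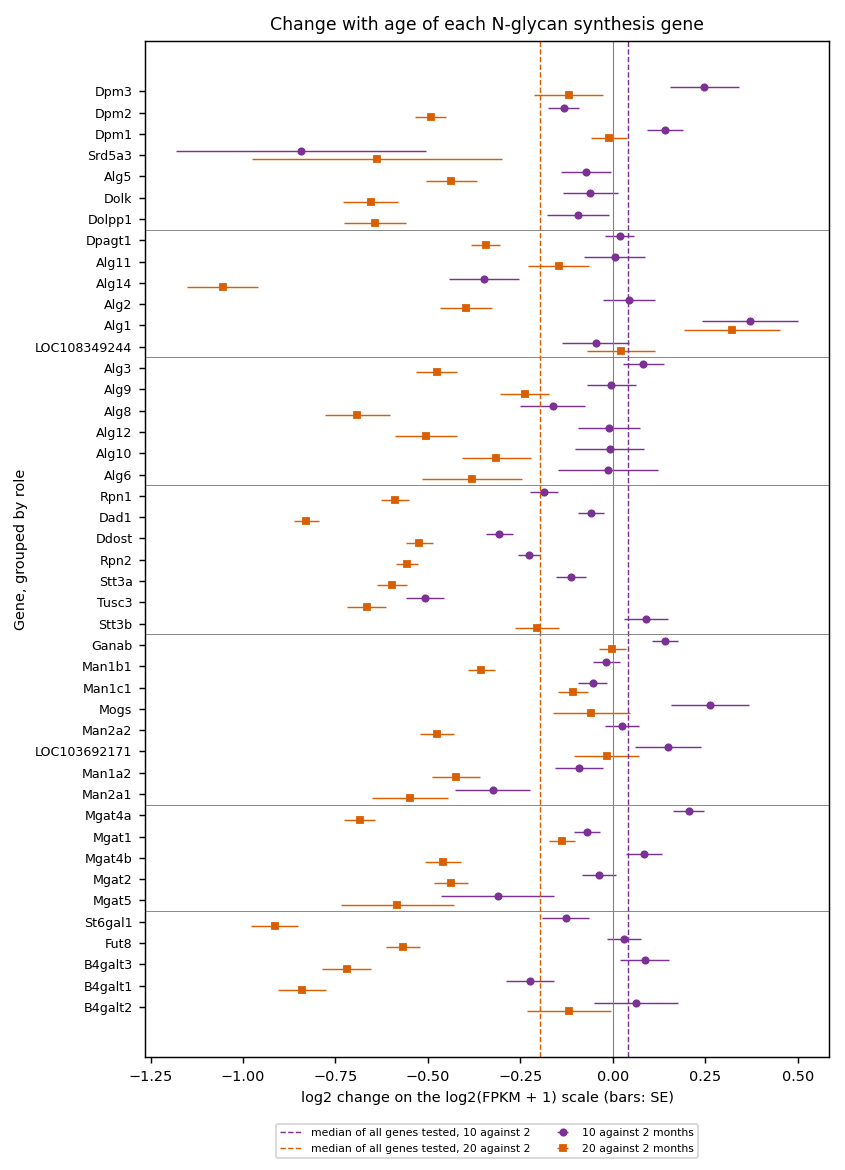
Change of each gene at 10 (circles) and 20 months (squares) against 2 months, on the log2(FPKM + 1) scale with SE bars, grouped by role. Dashed lines mark the medians of all genes tested, 0.040 and -0.20, and 33 of the 44 squares lie left of the latter.

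Supply of the lipid carrier and its activated sugars came first in the pathway. Of 7 such genes, 4 fell at 20 against 2 months and 1 at 10 against 2 months, beside 49.6% and 11.4% of all genes. The largest fall among those called was that of Dolk, the kinase that makes dolichol phosphate, with 7.13, 6.94 and 6.999 FPKM at 2 months, 6.39, 6.57 and 7.13 at 10 months and 3.796, 4.69 and 3.84 at 20 months. Its 20-month values were below all others, a fall from 2 months of 0.65 ± 0.074 (SE, adjusted p = 5.35e-05). Dolpp1, which returns used dolichol pyrophosphate to the cycle, went from 4.60, 3.93 and 4.07 FPKM over 3.73, 3.96 and 3.88 to 1.999, 2.63 and 2.37, a fall of 0.64 ± 0.084 (SE, adjusted p = 1.24e-04). Alg5, which makes dolichol-phosphate glucose, had 12.8, 13.7 and 14.8 FPKM at 2 months, 12.7, 12.7 and 13.7 at 10 months and 9.26, 10.7 and 9.78 at 20 months and fell by 0.44 ± 0.068 (SE, adjusted p = 3.93e-04). In all 3 genes the ranges of 2 and 10 months overlapped and those of 20 months lay below them.

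Dolichol-phosphate mannose is made by an enzyme of 3 subunits. Dpm2, an anchoring subunit, had 20.5, 20.7 and 20.1 FPKM at 2 months, 17.9, 18.4 and 19.4 at 10 months and 14.4, 13.8 and 14.5 at 20 months. Its ranges were apart at all 3 ages, with falls of 0.49 ± 0.041 (SE, adjusted p = 8.22e-06) at 20 against 2 months and 0.13 ± 0.041 (SE, adjusted p = 0.0387) at 10 against 2 months. The latter call was lost without any 1 of the 2-month libraries or without replicate 1 or 2 of 10 months, with adjusted p from 0.0733 to 0.135. Dpm1, the catalytic subunit, had 13.6, 14.2 and 14.6 FPKM at 2 months, 15.4, 16.7 and 15.0 at 10 months and 13.9, 14.0 and 14.1 at 20 months. Its change at 20 against 2 months was -0.01 ± 0.048 and its fall at 20 against 10 months 0.15 ± 0.048 (SE, adjusted p = 0.0212), the latter lost without replicate 2 of 10 months, at -0.11. After median-of-ratios scaling the changes were 0.20 and 0.099. Dpm3, the other anchor, had 23.8, 21.3 and 20.2 FPKM at 2 months, 25.6, 24.8 and 27.5 at 10 months and 17.3, 22.5 and 20.3 at 20 months. It fell at 20 against 10 months by 0.37 ± 0.094 (SE, adjusted p = 0.00747), while its 20-month range overlapped that of 2 months. After median-of-ratios scaling this change was -0.11 and not called.

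Srd5a3, which takes part in the last step of dolichol synthesis, varied most between replicates, with 9.58, 20.4 and 24.0 FPKM at 2 months, 9.03, 8.63 and 9.15 at 10 months and 16.8, 8.84 and 7.56 at 20 months. It was not called in any comparison, with -0.84 ± 0.34 (SE, adjusted p = 0.0909) at 10 against 2 months. A short transcript of 4 exons was at 24.1 and 19.4 FPKM in replicates 2 and 3 of 2 months and 17.4 in replicate 1 of 20 months, and listed at 0 in the other 6 libraries. These 3 libraries are the ones with the high gene values. Without replicate 1 of 2 months, the fall was called in both comparisons with 2 months, at -1.22 and -1.01, and likewise without replicate 1 of 20 months, at -0.84 and -0.96.

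Assembly on the cytosolic face involved 6 genes, of which 3 fell at 20 against 2 months, near the 49.6% of all genes. Alg14 changed most of all 44 genes at 20 against 2 months. It anchors, at the membrane, the enzyme that adds the second sugar, and had 12.0, 12.0 and 11.9 FPKM at 2 months, 8.36, 9.88 and 9.30 at 10 months and 5.44, 6.003 and 4.36 at 20 months. Its 3 ages did not overlap, and 44.1% of its 2-month level was left at 20 months, a fall of 1.05 ± 0.10 (SE, adjusted p = 1.29e-05). At 10 against 2 months it fell by 0.35 ± 0.10 (SE, adjusted p = 0.0236), a call that was lost without any 1 of the 2-month libraries or without replicate 1 or 3 of 10 months, with adjusted p from 0.0562 to 0.0843.

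Its catalytic partner Alg13, listed in the tables as LOC108349244 and named through its RefSeq gene ID, had 1.43, 1.27 and 1.58 FPKM at 2 months, 1.44, 1.31 and 1.29 at 10 months and 1.31, 1.72 and 1.37 at 20 months. These ranges overlapped at all ages, and no difference between the changes of the 2 genes was tested. The Alg13 entry pools 5 transcripts. Its 4-exon transcript of 1627 bases had 1.74, 1.62 and 1.60 FPKM at 2 months and 2.43, 2.02 and 1.96 at 10 months. At 20 months it had 2.09, 2.70 and 3.14, so both later ages lay above the 2-month range. Long transcripts of 26 and 27 exons switched between 0 and at most 1.47 FPKM among libraries. The gene was too low for the test of transcript use. Dpagt1, which adds the first sugar to the carrier and is the target of tunicamycin, had 19.0, 19.0 and 19.4 FPKM at 2 months, 18.9, 20.1 and 19.1 at 10 months and 15.2, 14.5 and 14.8 at 20 months. It overlapped between 2 and 10 months and was lower at 20 months by 0.34 ± 0.038 (SE, adjusted p = 4.81e-05). Alg2, a mannosyltransferase, showed the same order, with 8.196, 7.71 and 7.86 FPKM at 2 months, 7.88, 8.90 and 7.84 at 10 months and 5.53, 6.40 and 5.44 at 20 months and a fall of 0.40 ± 0.07 (SE, adjusted p = 8.81e-04).

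The remaining pair of cytosolic mannosyltransferases was not called in any comparison of the main fit. Alg11 had 9.79, 9.83 and 8.46 FPKM at 2 months, 8.46, 9.48 and 10.3 at 10 months and 8.22, 7.89 and 8.96 at 20 months, with overlapping ranges. Alg1, which adds the first mannose, had 1.81, 2.19 and 1.77 FPKM at 2 months, 2.49, 2.95 and 2.90 at 10 months and 3.04, 1.95 and 3.07 at 20 months. All its 10-month values exceeded those of 2 months, and its change was 0.37 ± 0.13 (SE, adjusted p = 0.0595) at 10 and 0.32 ± 0.13 (SE, adjusted p = 0.0518) at 20 against 2 months. Replicate 2 of 20 months lay within the 2-month range, and without it both rises were called, at 0.37 and 0.48, as was the one at 20 against 2 months without replicate 2 of 2 months, at 0.39. Alg1 overlaps Eef2kmt, of 1.56 FPKM on average, on the other strand, and reads of the 2 cannot be told apart where counting ignores strand.

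On the lumenal face, all 6 genes fell in both comparisons with 20 months, beside 49.6% of all genes against 2 and 53.3% against 10 months. At 10 against 2 months limma called 0 (0 also at an unadjusted p under 0.05), beside 11.4% of all genes lower and 19.0% higher. Alg3, the first of the lumenal mannosyltransferases, had 11.1, 11.4 and 12.8 FPKM at 2 months, 12.2, 12.9 and 12.4 at 10 months and 8.18, 8.05 and 8.27 at 20 months and fell by 0.48 ± 0.055 (SE, adjusted p = 6.07e-05) from 2 to 20 months. Alg12, which adds a later mannose, had 3.82, 3.77 and 3.92 FPKM at 2 months, 3.87, 3.63 and 3.91 at 10 months and 2.46, 2.02 and 2.79 at 20 months and fell by 0.50 ± 0.084 (SE, adjusted p = 5.66e-04). Both had overlapping 2- and 10-month ranges well above 20 months. Alg8, which adds the second glucose, had 5.03, 5.16 and 6.46 FPKM at 2 months, 4.79, 5.17 and 4.54 at 10 months and 2.99, 3.21 and 2.92 at 20 months. It showed the largest fall of this group, 0.69 ± 0.088 (SE, adjusted p = 1.12e-04). Alg9, a mannosyltransferase, fell by 0.24 with 20-month values of 5.46, 5.51 and 5.502 FPKM against at least 6.49 at 2 months.

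The glucosyltransferase genes Alg6 and Alg10, of 2.06 to 3.34 FPKM per age on average, fell by 0.38 ± 0.13 (SE, adjusted p = 0.031) and 0.31 ± 0.092 (SE, adjusted p = 0.0137). The call of Alg6 was lost without replicate 1 or 3 of 2 months or replicate 2 of 20 months, at -0.35, -0.36 and -0.22, and that of Alg10 without replicate 3 of 2 months, at -0.25. At 20 against 10 months the call of Alg6 was lost in 5 and that of Alg10 in 3 such omissions, with adjusted p from 0.0513 to 0.108 and 0.0516 to 0.0544. After median-of-ratios scaling 3 of the 6 lumenal genes fell at 20 against 2 months, namely Alg3, Alg8 and Alg12, beside 31.3% of all genes.

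Oligosaccharyltransferase genes were the most abundant group and the one with the most falls at 10 months. All 7 fell at 20 against 2 months and 4 at 10 against 2 months, beside 49.6% and 11.4% of all genes. Their summed level was 403 to 416 FPKM in the 2-month, 356 to 363 in the 10-month and 259.7 to 266 in the 20-month libraries. The complex exists in a form with the catalytic subunit Stt3a, which acts as the chain enters the lumen, and a form with Stt3b, which acts later. Ribophorins I and II (Rpn1 and Rpn2), Ddost and Dad1 belong to both. The 150 bases before the start site are shown for each member of the complex with an entry in RefSeq's promoter table. They run 5′ to 3′ on the gene's strand, in build GRCr8. Tusc3 had no such entry, and regulation through these bases was not tested. Capitals mark CCAAT and CCACG, the 2 parts of the endoplasmic reticulum stress element, on either strand (ATTGG and CGTGG on the other).
Rpn1, chr4:122100826-122100975, plus strand: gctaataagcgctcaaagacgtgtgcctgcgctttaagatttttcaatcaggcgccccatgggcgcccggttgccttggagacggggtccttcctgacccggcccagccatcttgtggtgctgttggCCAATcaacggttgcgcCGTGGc
Dad1, chr15:31667160-31667309, minus strand: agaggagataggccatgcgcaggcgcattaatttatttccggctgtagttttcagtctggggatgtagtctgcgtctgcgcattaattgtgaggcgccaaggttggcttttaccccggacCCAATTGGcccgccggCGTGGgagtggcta
Ddost, chr5:155805462-155805611, plus strand: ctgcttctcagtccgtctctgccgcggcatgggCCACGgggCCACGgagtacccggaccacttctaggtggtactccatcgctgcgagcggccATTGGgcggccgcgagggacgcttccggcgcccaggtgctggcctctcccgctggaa
Rpn2, chr3:166361917-166362066, plus strand: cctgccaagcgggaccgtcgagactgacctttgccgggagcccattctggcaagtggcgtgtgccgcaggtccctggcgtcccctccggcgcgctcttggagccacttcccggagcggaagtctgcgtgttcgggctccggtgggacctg
Stt3a, chr8:44671961-44672110, minus strand: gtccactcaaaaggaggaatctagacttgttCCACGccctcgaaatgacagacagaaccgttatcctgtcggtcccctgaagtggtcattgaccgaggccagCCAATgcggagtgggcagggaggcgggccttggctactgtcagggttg
Stt3b, chr8:123872180-123872329, minus strand: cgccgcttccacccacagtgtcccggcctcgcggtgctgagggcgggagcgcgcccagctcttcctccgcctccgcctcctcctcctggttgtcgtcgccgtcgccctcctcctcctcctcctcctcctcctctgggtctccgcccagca

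Both parts occurred in these windows of Rpn1, Dad1, Ddost and Stt3a, and neither in those of Rpn2 and Stt3b. Rpn2 held 2 CCACG matches just upstream of its printed window. Of the 44 genes, 41 had a promoter in the table, which reaches from 250 bases before to 50 after the start. CCAAT was found in 15 of them (36.6%), beside 37.7% of 27457 promoters of the table, and CCACG in 21 (51.2%), beside 32.5%. Unlike the 44 genes, the 27457 promoters were not filtered by expression, so these shares compare unlike sets. The full element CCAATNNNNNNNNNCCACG was in 0 of 41, beside 0.0765%, and the related TGACGTG in 1, that of Mogs, beside 1.88%. All were searched on both strands, and a match describes letters only.

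Rpn1 (in the deposited tables on chromosome 4, 119997268 to 120018679, on a build not given in the sources used here) was the highest of the 44 genes. It had 137, 137 and 139 FPKM at 2 months, 121, 119 and 123 at 10 months and 96.3, 90.9 and 86.8 at 20 months. The 3 ages did not overlap, with falls of 0.19 ± 0.039 (SE, adjusted p = 0.00686) at 10 and 0.59 ± 0.039 (SE, adjusted p = 1.93e-06) at 20 against 2 months. Rpn2 (chromosome 3, 153398130 to 153445632) had 61.9, 62.6 and 63.7 FPKM at 2 months, 53.7, 53.3 and 53.4 at 10 months and 41.3, 43.3 and 42.5 at 20 months, again with no overlap and falls of 0.23 ± 0.03 (SE, adjusted p = 6.79e-04) and 0.56 ± 0.03 (SE, adjusted p = 7.03e-07). Ddost (chromosome 5, 156668712 to 156676035) had 67.5, 67.0 and 69.2 FPKM at 2 months, 54.8, 53.0 and 56.4 at 10 months and 45.3, 48.4 and 47.1 at 20 months. It fell by 0.31 ± 0.037 (SE, adjusted p = 4.31e-04) at 10 and 0.52 ± 0.037 (SE, adjusted p = 3.00e-06) at 20 against 2 months. Its further fall at 20 against 10 months, 0.22 ± 0.037 (SE, adjusted p = 8.28e-04), turned to 0.046 after median-of-ratios scaling, under which that of Rpn2 was no longer called.

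Dad1 (chromosome 15, 32868087 to 32888095), a small subunit named for defence against cell death, took another course. It had 94.1, 97.3 and 102 FPKM at 2 months, 93.7, 93.0 and 94.4 at 10 months and 53.6, 54.9 and 55.2 at 20 months. The values of 2 and 10 months overlapped, with a change of -0.06 ± 0.034 (SE, adjusted p = 0.223), and the fall at 20 months was the largest in the complex, 0.83 ± 0.034 (SE, adjusted p = 1.74e-07) from 2 months and 0.77 ± 0.034 (SE, adjusted p = 7.70e-07) from 10 months. At 20 months 55.8% of its 2-month level was left, against 66.3% for Rpn1 and 67.5% for Rpn2. These differences between subunits were not tested.

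Tusc3 and Magt1 encode alternative oxidoreductase subunits of the Stt3b form, and Magt1 does not carry the pathway term. Tusc3 (chromosome 16, 56247659 to 56396502) had 13.8, 14.5 and 13.2 FPKM at 2 months, 9.42, 9.50 and 9.32 at 10 months and 8.10, 8.85 and 8.07 at 20 months. Its fall at 10 against 2 months, 0.51 ± 0.052 (SE, adjusted p = 1.93e-04), was the largest of all called genes of the pathway in that comparison, and at 20 against 2 months it was 0.67 ± 0.052 (SE, adjusted p = 5.32e-06). The further fall of 0.16 ± 0.052 (SE, adjusted p = 0.0243) at 20 against 10 months was lost without any 1 of the 10-month libraries or without replicate 1 or 3 of 20 months (adjusted p from 0.0501 to 0.0677), and turned to 0.083 after median-of-ratios scaling. Magt1 had 16.9, 17.1 and 16.7 FPKM at 2 months, 16.0, 16.2 and 16.4 at 10 months and 14.2, 13.0 and 11.9 at 20 months, with a change of -0.056 ± 0.057 (SE, adjusted p = 0.495) at 10 against 2 months and a fall of 0.35 ± 0.057 (SE, adjusted p = 4.76e-04) at 20 months. The difference of log2(FPKM + 1), Magt1 over Tusc3, was 0.27 ± 0.053 (SD, n = 3) at 2 months, 0.72 ± 0.026 at 10 months and 0.58 ± 0.13 at 20 months. All 6 later libraries lay above the 2-month ones, and the later 2 ages overlapped.

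The falls of Rpn1, Rpn2, Ddost and Tusc3 at 10 against 2 months were called under all 19 alternatives tried. The other 4 genes called lower there, Alg14, Man2a1, B4galt1 and Dpm2, were not. Leaving out any 1 library of 2 or 10 months left 4 or 5 of the 8 calls.

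The balance of the catalytic subunits Stt3a and Stt3b was lower at each later age. The table's Stt3a gene (chromosome 8, 39181163 to 39243882) had 20.4, 20.6 and 21.1 FPKM at 2 months, 19.0, 19.4 and 18.7 at 10 months and 13.0, 14.0 and 13.0 at 20 months, a fall of 0.60 ± 0.04 (SE, adjusted p = 2.26e-06) from 2 to 20 months. This entry pools 3 transcripts that do not all come from Stt3a. An 18-exon transcript carried most of the signal, with 28.1, 28.7 and 29.3 FPKM at 2 months, 26.4, 26.9 and 25.9 at 10 months and 18.4, 19.5 and 18.2 at 20 months. A 13-exon transcript that shares no base with it had 0.867 to 2.85 FPKM, and RefSeq lists Chek1, a checkpoint kinase gene, as the neighbour of Stt3a. Another, of 19 exons, overlapped both and reached at most 0.316 FPKM. Taken by its 18-exon transcript, Stt3a fell by 0.12 ± 0.039 (SE, adjusted p = 0.0475) at 10 against 2 months and by 0.59 (adjusted p = 1.88e-06) at 20 against 2 months. The pooled entry gave -0.11 ± 0.04 (SE, adjusted p = 0.0608) in the former, with adjusted p from 0.0185 to 0.170 over the alternatives, so that the call at 10 months rested on the setting.

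Stt3b (chromosome 8, 123293057 to 123371257) had 7.73, 7.54 and 7.86 FPKM at 2 months, 8.37, 8.57 and 7.87 at 10 months and 6.61, 6.05 and 7.05 at 20 months. Its 10-month values were all above those of 2 months and its 20-month values all below, with 0.089 ± 0.06 (SE, adjusted p = 0.291) at 10 and a fall of 0.20 ± 0.06 (SE, adjusted p = 0.0133) at 20 against 2 months. After median-of-ratios scaling the latter change was -0.0038 and not called. The difference of log2(FPKM + 1), Stt3a transcript over Stt3b, was 1.77 ± 0.029 (SD, n = 3) at 2 months, 1.56 ± 0.031 at 10 months and 1.38 ± 0.15 at 20 months. The 3 ages did not overlap, although the highest 20-month library, at 1.542, nearly met the lowest 10-month one, at 1.546. This sets transcript FPKM of Stt3a against gene FPKM of Stt3b, so its level mixes unlike measures. Between the 2 gene entries it was 1.32 ± 0.022 (SD, n = 3), 1.11 ± 0.035 and 0.92 ± 0.15 at the 3 ages, again without overlap. No test was made of these ratios, which do not change with the scaling of a library except through the added 1.

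**Figure D4:**
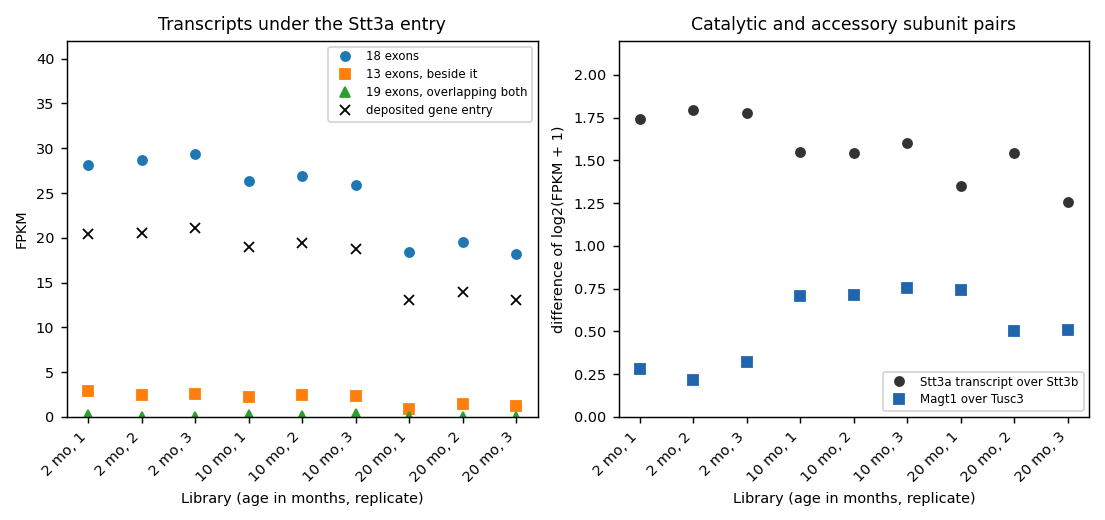
Left, FPKM of the 3 transcripts under the table's Stt3a entry and of the entry itself in each library. Right, difference of log2(FPKM + 1) within subunit pairs. Stt3a (18-exon transcript) over Stt3b (gene entry) falls from 1.77 to 1.38 on average. Magt1 over Tusc3 is 0.27 at 2 months and 0.72 and 0.58 later.

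Of the complex's subunits without the pathway term, Ost4, Ostc, Krtcap2 and Magt1 were tested. Ost4, a very short subunit, had 220.1, 238 and 228 FPKM at 2 months, 197, 191 and 204 at 10 months and 192, 179 and 157 at 20 months, and fell by 0.21 ± 0.069 (SE, adjusted p = 0.0463) at 10 and 0.38 ± 0.069 (SE, adjusted p = 9.71e-04) at 20 against 2 months. After median-of-ratios scaling the latter was -0.15 (adjusted p = 0.0674) and not called. Ostc, which belongs to the Stt3a form, had 74.9, 76.4 and 73.2 FPKM at 2 months, 62.5, 63.5 and 59.8 at 10 months and 43.9, 39.6 and 42.1 at 20 months. Its ages did not overlap, and it fell by 0.83 ± 0.043 (SE, adjusted p = 6.06e-07) from 2 to 20 months. Krtcap2, also of the Stt3a form, went the other way, with 14.5, 13.8 and 15.9 FPKM at 2 months, 18.3, 19.6 and 17.6 at 10 months and 18.4, 17.2 and 18.2 at 20 months. It rose by 0.31 ± 0.061 (SE, adjusted p = 0.00498) at 10 and 0.27 ± 0.061 (SE, adjusted p = 0.00341) at 20 against 2 months, with both later ages above the 2-month range.

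**Figure D5:**
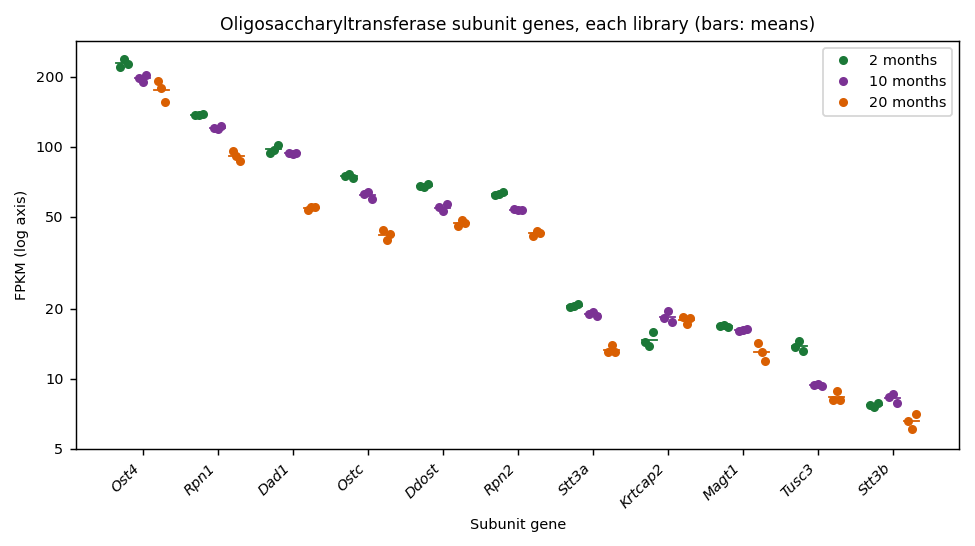
FPKM (log axis) of 11 oligosaccharyltransferase subunit genes in each library, coloured by age, with short bars for the means of 3 libraries. The 20-month points lie below all others for all genes but Ost4, where 1 of them overlaps the 10-month points, and Krtcap2, which is at 14.7 FPKM on average at 2 months and 17.9 at 20 months.

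Of 8 trimming genes, 5 fell at 20 against 2 months, all of them mannosidase genes, beside 49.6% of all genes. At 10 against 2 months 1 fell and 1 rose, beside 11.4% and 19.0% of all genes. Man2a1, whose fall follows from the rule that chose the genes, is 1 of the 5 and the only fall at 10 months. The 3 glucosidase genes among the 8 were not called at 20 against 2 months. Ganab, the catalytic subunit of glucosidase II and the highest of the group, had 44.2, 41.9 and 42.9 FPKM at 2 months, 46.8, 46.5 and 49.3 at 10 months and 43.5, 42.8 and 42.6 at 20 months. It rose by 0.14 ± 0.036 (SE, adjusted p = 0.0163) at 10 against 2 months and was back at its 2-month level at 20 months, with -0.0011 ± 0.036. That rise was lost without replicate 2 or 3 of 2 months or replicate 3 of 10 months, with adjusted p from 0.0514 to 0.0677. After median-of-ratios scaling Ganab was higher at 20 than at 2 and at 10 months, by 0.22 and 0.12, so its direction there depended on the scaling. Prkcsh, the other glucosidase II subunit, does not carry the term and had 94.9, 97.3 and 93.6 FPKM at 2 months, 85.9, 86.9 and 86.3 at 10 months and 86.6, 82.3 and 79.6 at 20 months, a fall of 0.20 ± 0.035 (SE, adjusted p = 8.62e-04) as deposited and a change of 0.026 after that scaling.

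Mogs, glucosidase I, had 6.97, 6.45 and 6.85 FPKM at 2 months, 7.88, 7.46 and 9.71 at 10 months and 5.81, 7.47 and 6.17 at 20 months. A near-copy listed as LOC103692171, assigned to the same enzyme, had 6.53, 5.80 and 6.55 FPKM at 2 months, 7.52, 7.13 and 6.61 at 10 months and 5.56, 7.17 and 5.97 at 20 months, and the quantification could split reads between them. Neither was called against 2 months, and the fall of Mogs at 20 against 10 months, 0.32 ± 0.10 (SE, adjusted p = 0.0233), was lost without replicate 3 of 10 months or replicate 1 or 3 of 20 months, at -0.22, -0.26 and -0.29. The sum of both changed by 0.23 (adjusted p = 0.0778) at 10 and -0.041 at 20 against 2 months. At 20 against 10 months it changed by -0.27 (limma, adjusted p = 0.0221), and its call without single libraries was not tried.

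Man1b1, which removes the first mannose in the endoplasmic reticulum, had 33.1, 35.1 and 34.9 FPKM at 2 months, 33.4, 33.7 and 34.6 at 10 months and 26.9, 27.0 and 25.9 at 20 months. It overlapped between 2 and 10 months and fell by 0.36 ± 0.037 (SE, adjusted p = 3.02e-05) at 20 months. Of the Golgi class I mannosidases, Man1a2 had 3.53, 3.87 and 3.81 FPKM at 2 months, 3.38, 3.66 and 3.31 at 10 months and 2.55, 2.67 and 2.38 at 20 months and fell by 0.42 ± 0.064 (SE, adjusted p = 3.33e-04). Man1c1, the more abundant, had 27.5, 28.0 and 29.0 FPKM at 2 months, 27.2, 26.7 and 27.3 at 10 months and 26.6, 26.9 and 24.8 at 20 months. Its fall of 0.11 ± 0.04 (SE, adjusted p = 0.0404) was lost without any 1 of the 2- or 10-month libraries or without replicate 3 of 20 months (adjusted p from 0.0504 to 0.134) and became a rise of 0.11 after median-of-ratios scaling. Man2a2, a Golgi mannosidase II, had 8.05, 7.66 and 8.06 FPKM at 2 months, 8.22, 7.89 and 8.13 at 10 months and 5.24, 5.61 and 5.41 at 20 months and fell by 0.48 ± 0.047 (SE, adjusted p = 2.24e-05).

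Its paralogue Man2a1 had 1.35, 1.11 and 1.06 FPKM at 2 months, 0.747, 0.705 and 0.740 at 10 months and 0.667, 0.409 and 0.389 at 20 months. The values fell below 1 FPKM after 2 months, which is the course its entry into the set required. Its fall of 0.33 ± 0.10 (SE, adjusted p = 0.0405) at 10 against 2 months was lost without any 1 of the 6 libraries compared, with adjusted p from 0.0645 to 0.140. Man2a2 was the higher of the pair in all libraries.

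All 5 branching enzymes fell at 20 against 2 months, beside 49.6% of all genes. Mgat4a, which starts a branch on complex chains, was the highest of them and had 37.1, 34.9 and 36.4 FPKM in the 2-month libraries, 42.1, 41.9 and 41.3 in the 10-month ones and 20.8, 22.5 and 23.0 in the 20-month ones. Its 3 ages did not overlap, and it was one of 2 genes of the pathway that rose at 10 against 2 months, by 0.20 ± 0.043 (SE, adjusted p = 0.00714), before falling below its 2-month level, by 0.68 ± 0.043 (SE, adjusted p = 1.44e-06). Its fall of 0.89 ± 0.043 (SE, adjusted p = 1.05e-06) at 20 against 10 months was the largest of the 44 genes in that comparison. The related Mgat4b had 19.5, 18.3 and 18.6 FPKM in the 2-month libraries, 20.0, 19.2 and 20.9 in the 10-month ones and 14.0, 13.3 and 12.9 in the 20-month ones, with overlapping 2- and 10-month ranges and a fall of 0.46 ± 0.048 (SE, adjusted p = 3.21e-05). Mgat4a over Mgat4b, as the difference of log2(FPKM + 1), was 0.91 ± 0.022 (SD, n = 3), 1.03 ± 0.067 and 0.68 ± 0.13 at the 3 ages, which did not overlap.

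Mgat1, which opens the way to all hybrid and complex chains, changed least of the 5. It had 21.1, 20.5 and 20.5 FPKM in the 2-month libraries, 19.4, 19.7 and 20.0 in the 10-month ones and 18.5, 19.3 and 18.4 in the 20-month ones and fell by 0.14 ± 0.036 (SE, adjusted p = 0.00739), a change of 0.080 after median-of-ratios scaling, under which it rose at 20 against 10 months by 0.19. Mgat2, which acts after it, had 13.2, 13.8 and 13.1 FPKM in the 2-month libraries, 12.9, 13.2 and 12.9 in the 10-month ones and 9.23, 10.2 and 9.51 in the 20-month ones and fell by 0.44 ± 0.046 (SE, adjusted p = 3.35e-05). Mgat5, which adds the branch associated with larger chains, was low and spread, with 2.62, 2.17 and 2.54 FPKM in the 2-month libraries, 1.32, 1.86 and 2.21 in the 10-month ones and 1.01, 1.15 and 1.80 in the 20-month ones. It fell by 0.58 ± 0.15 (SE, adjusted p = 0.00768), while its 10-month values overlapped both other ages.

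Among the 5 genes for core fucose and chain ends, 4 fell at 20 against 2 months and 1 at 10 against 2 months, beside 49.6% and 11.4% of all genes. St6gal1, the sialyltransferase that caps galactose, had 38.7, 39.5 and 38.6 FPKM at 2 months, 36.6, 35.3 and 34.8 at 10 months and 22.0, 20.8 and 18.0 at 20 months. Its ages did not overlap, with 52.0% of the 2-month level left at 20 months, a fall of 0.91 ± 0.064 (SE, adjusted p = 2.75e-06). B4galt1, a galactosyltransferase, had 13.4, 13.3 and 14.0 FPKM at 2 months, 11.7, 11.9 and 10.8 at 10 months and 6.43, 7.30 and 7.71 at 20 months and fell by 0.84 ± 0.065 (SE, adjusted p = 5.11e-06). Its ages did not overlap either, but its fall of 0.22 ± 0.065 (SE, adjusted p = 0.0298) at 10 against 2 months was lost without any 1 of the 6 libraries compared, with adjusted p from 0.0535 to 0.101. B4galt3, another galactosyltransferase, had 15.6, 14.6 and 15.7 FPKM at 2 months, 17.7, 14.9 and 16.3 at 10 months and 9.25, 8.41 and 8.97 at 20 months, with no difference beyond the spread at 10 months and a fall of 0.72 ± 0.066 (SE, adjusted p = 1.38e-05).

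Fut8, the only enzyme known to add core fucose, had 35.8, 34.4 and 34.6 FPKM at 2 months, 36.2, 35.2 and 35.6 at 10 months and 23.9, 21.7 and 24.2 at 20 months. The values of 2 and 10 months overlapped, and it fell by 0.57 ± 0.045 (SE, adjusted p = 5.99e-06) at 20 months. B4galt2 had 1.08, 1.10 and 0.808 FPKM at 2 months, 0.800, 1.3 and 1.17 at 10 months and 0.874, 0.752 and 0.875 at 20 months and was not called. Without replicate 1 of 10 months it was called at 20 against 10 months, at -0.28. The difference of log2(FPKM + 1), B4galt1 over B4galt2, went from 2.87 ± 0.16 (SD, n = 3) over 2.59 ± 0.20 to 2.15 ± 0.14, and only the 20-month values were apart from the rest. These 4 falls held after median-of-ratios scaling, as did all 4 in carrier supply, all 3 on the cytosolic face, 6 of 7 in the oligosaccharyltransferase, 4 of 5 in branching, 4 of 5 in trimming and 3 of 6 on the lumenal face. The 4 in trimming include Man2a1, whose fall follows from the rule that chose the genes. After that scaling 31.3% of all genes fell.

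Use of transcripts within genes was tested on the transcript table. In 4 genes with 2 or more transcripts (Man2a2, Mgat1, Alg3 and Srd5a3), 9 transcripts could be tested and limma called 0 of them among the ages, beside 8.28% of 2765 transcripts tested (0 of 9 also at an unadjusted p under 0.05). Their shares varied widely between replicates. The shorter Alg3 transcript was at 0 in replicates 1 and 2 of 10 months and 3.63 FPKM in replicate 3, so differences of moderate size were not detectable.

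Genes acting next to this pathway were read from lists chosen by function. The calnexin cycle and degradation factors that read glycans on folding proteins fell in 11 of 14 cases at 20 against 2 months, beside 49.6% of all genes. At 10 against 2 months 4 fell, beside 11.4%. Limma counted 0 rises in both (0 and 1 at an unadjusted p under 0.05), beside 18.6% and 19.0% of all genes. Os9, which recognises trimmed chains on proteins bound for degradation, was at 169 ± 3.07 FPKM at 2 months (mean ± SD, n = 3), 137 ± 1.22 at 10 months and 94.8 ± 3.22 at 20 months, with a fall of 0.83 ± 0.032 (SE, adjusted p = 1.22e-07) from 2 to 20 months. Canx, the membrane chaperone that binds monoglucosylated chains, was at 189 ± 2.91 FPKM at 2 months (mean ± SD, n = 3), 191 ± 4.94 at 10 months and 128 ± 5.11 at 20 months. Edem3, a mannosidase of the degradation route, was at 6.62 ± 0.141 FPKM at 2 months (mean ± SD, n = 3), 6.97 ± 0.404 at 10 months and 2.92 ± 0.198 at 20 months. Os9 was called lower at both later ages, and Canx and Edem3 at 20 against 2 but not at 10 against 2 months.

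Nucleotide sugar supply fell in 13 of 20 genes and rose in 2 at 20 against 2 months, beside 49.6% and 18.6% of all genes. At 10 against 2 months 1 rose and limma called 0 lower (1 at an unadjusted p under 0.05), beside 19.0% and 11.4%. The Golgi transporters Slc35c1 and Slc35a1 moved in opposite directions. Slc35c1, which carries GDP-fucose, was at 6.55 ± 0.152 FPKM at 2 months (mean ± SD, n = 3), 6.31 ± 0.104 at 10 months and 2.39 ± 0.177 at 20 months, a fall of 1.16 ± 0.056 (SE, adjusted p = 4.03e-07). Slc35a1, which carries CMP-sialic acid, had 12.8, 12.3 and 13.6 FPKM at 2 months, 15.0, 15.4 and 15.1 at 10 months and 21.3, 21.4 and 20.3 at 20 months. Its ages did not overlap, and it rose by 0.22 ± 0.045 (SE, adjusted p = 0.00705) at 10 and 0.66 ± 0.045 (SE, adjusted p = 2.41e-06) at 20 against 2 months, while St6gal1 fell. Pmm2, which makes mannose phosphate for GDP-mannose, was at 36.7 ± 1.43 FPKM at 2 months (mean ± SD, n = 3), 39.5 ± 0.755 at 10 months and 26.2 ± 1.58 at 20 months, a fall of 0.47 ± 0.049 (SE, adjusted p = 3.18e-05).

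In the unfolded protein response 15 of 20 genes fell and 1 rose at 20 against 2 months, beside 49.6% and 18.6% of all genes. At 10 against 2 months 6 fell and 3 rose, beside 11.4% and 19.0%. Creb3l2, a membrane-bound factor of secretory cells, was at 146 ± 0.556 FPKM at 2 months (mean ± SD, n = 3), 136 ± 2.22 at 10 months and 92.5 ± 5.92 at 20 months, and fell by 0.66 ± 0.044 (SE, adjusted p = 2.03e-06). Creb3l1, its relative, was at 30.3 ± 0.919 FPKM at 2 months (mean ± SD, n = 3), 30.0 ± 2.11 at 10 months and 17.3 ± 1.45 at 20 months, and Dnajb11, a lumenal co-chaperone, at 24.9 ± 0.373 FPKM at 2 months (mean ± SD, n = 3), 20.9 ± 0.366 at 10 months and 14.0 ± 0.651 at 20 months. After median-of-ratios scaling, under which 31.3% of all genes fell and 31.0% rose at 20 against 2 months, 12 of 20 fell and 5 rose here. Among the 14 glycoprotein folding genes 7 then fell and 1 rose, and among the 20 of sugar supply 7 fell and 4 rose, beside the same shares of all genes. Of the pathway's own roles, 8 further genes without the term were tested, including the subunits above. Of these, 6 fell and 1 rose at 20 against 2 months, beside 49.6% and 18.6% of all genes. At 10 against 2 months 4 fell and 1 rose, beside 11.4% and 19.0%. After median-of-ratios scaling 3 fell and 1 rose at 20 against 2 months. Dhdds and Nus1, the subunits of the enzyme that builds the dolichol chain, were at 12.2 ± 0.743 FPKM at 2 months (mean ± SD, n = 3), 11.8 ± 0.643 at 10 months and 9.84 ± 0.607 at 20 months and at 13.0 ± 0.477 FPKM at 2 months (mean ± SD, n = 3), 11.2 ± 0.387 at 10 months and 9.38 ± 0.790 at 20 months, and both fell at 20 against 2 months. After median-of-ratios scaling the fall of Dhdds was no longer called, at -0.072 (adjusted p = 0.349).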

How the data were processed

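RNA abundance was read from the input libraries, 3 per age. Per the labels' protocols, TRIzol served for extraction and oligo(dT) beads for selecting poly(A) RNA, which was then fragmented. The authors deposited FPKM by gene, and FPKM with read coverage by transcript, per the file headers. Listed in the submitters' processing notes, with no roles, are edgeR and DESeq2, StringTie 1.3.4d, HISAT2 2.0.4 and cutadapt 1.9. Genome build, annotation and strandedness were not given in the sources used.

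Genes with FPKM of at least 1 in 3 or more libraries were tested on log2(FPKM + 1) with limma 3.58.1 in R 4.3.3 (eBayes with trend), all 9 libraries together, with calls at p under 0.05 after Benjamini-Hochberg adjustment. The added 1 understates changes of low genes. Transcript use was tested on the log2 ratio of a transcript to the gene's others with 0.5 added, for genes of at least 5 summed FPKM and shares of 10 to 90%. Without counts in the tables, depth was estimated from coverage. The tests were tried on simulated data. The labels' groups were used as given.

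The members and all gene lists were chosen with earlier results of these data known. Any of the 44 genes may be named; of the other lists, up to 3 called genes with the smallest F-test p are, with genes of the pathway's roles. The glycan lists cover glycoprotein folding, nucleotide sugar supply, the unfolded protein response, late enzymes and lysosomal breakdown. The main fit did not pair libraries across ages by replicate number. Alternatives were other scalings, pseudocounts, filters and fits, left-out libraries and, chosen after the data were seen, Stt3a by its transcript with both Mogs genes summed.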

Additional observations from a re-analysis of the deposited data

How the results depend on the processing

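Under other pseudocounts, filters, fits and left-out libraries, the falls at 20 months kept their number within 1.5 times, and scaling moved them most. Leaving out 1 library gave 31 to 35 falls at 20 against 2 months, 30 to 34 at 20 against 10 months and 33 to 37 genes by the F test. Median-of-ratios scaling gave 1 rise at 10 against 2, 4 rises at 20 against 2, and 3 rises and 19 falls at 20 against 10 months. Quantile normalization gave 3 rises at 20 against 2, and 3 rises and 22 falls at 20 against 10 months. At 10 against 2 months the 2 rises became 4 with only the 2 ages fitted, 6 with array weights and 1 to 4 with 1 library left out (1 without replicate 2 or 3 of 2 months, 4 without replicate 2 of 20 months). The 8 falls became 4 to 9, with 4 or 5 whenever a library of 2 or 10 months was left out. At 20 against 2 months the 0 rises became 1 with FPKM of at least 1 required in all 9 libraries, and 0 to 1 with 1 library left out. The 1 was Alg1 in each.

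The median log2 change at 10 against 2 months was -0.061 after median-of-ratios scaling, -0.078 after quantile normalization and -0.059 to -0.021 with 1 library left out. At 20 against 2 months it was -0.26, -0.28, -0.52 with a pseudocount of 0.1, -0.31 with 5, and -0.48 to -0.43 with 1 library left out. At 20 against 10 months the same settings gave -0.12, -0.16, -0.40, -0.27 and -0.38 to -0.33, and array weights -0.34.

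Among changes called under either setting, signs turned under scaling only. Uncalled changes also turned with 1 library left out, mostly from near 0, and furthest for Srd5a3 at 20 against 10 months, from 0.21 to -0.11 without replicate 1 of 20 months, and Alg1, from -0.048 to 0.10 without replicate 2 of 20 months. Median-of-ratios scaling gave, at 20 against 2 months, Dpm1 0.20, Ganab 0.22, Man1c1 0.11 and Mgat1 0.080, and at 20 against 10 months Dpm1 0.099, Ganab 0.12, Man1c1 0.21, Mgat1 0.19, Ddost 0.046 and Tusc3 0.083. Quantile normalization gave Dpm1 0.17, Ganab 0.13, Man1c1 0.032 and Mgat1 0.034 in the former comparison, and Dpm1 0.057, Man1c1 0.12, Mgat1 0.13 and Tusc3 0.088 in the latter. Calls gained with 1 library left out, and not given above, were at 10 against 2 months Dpm1 (0.17, without replicate 3 of 10 months), Dpm3 (0.25, without replicate 1 or 2 of 20 months), Stt3a (-0.11, without replicate 2 of 20 months) and St6gal1 (-0.13, without replicate 3 of 20 months). At 20 against 10 months they were Mgat5 (-0.40 without replicate 1 of 10 months, -0.41 without replicate 3 of 20 months), Man2a1 (-0.31, without replicate 1 of 20 months) and LOC103692171 (-0.26, without replicate 2 of 20 months). The cause of these shifts was not tested.

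No pairing by replicate number was seen. Deviations from the age means correlated at -0.0400 to 0.0491 between same-numbered libraries and at -0.0734 to 0.0628 between the others. Such values cannot show that the samples were unpaired. A fit with the replicate block gave 2 rises and 6 falls at 10 against 2, 0 and 33 at 20 against 2, and 0 and 34 at 20 against 10 months. It called 0 transcripts of the 44 genes, and 44 of all transcripts against 229 without it. Over all genes tested, median-of-ratios scaling moved the counts at 20 against 2 months from 2175 to 3630 higher and 5811 to 3668 lower, and at 20 against 10 months from 1339 to 3125 and 6237 to 3017. Depth limits the 12 genes whose shallowest library had under 100 fragments.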

Other observations

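Genes that act on finished glycans, outside the biosynthesis set, were read in the same fit. Of 13 genes of lysosomal glycan breakdown, 8 fell and 1 rose at 10 against 2 months, beside 11.4% and 19.0% of all genes tested, and 9 fell and 1 rose at 20 against 2 months, beside 49.6% and 18.6%. After median-of-ratios scaling the latter counts were 7 and 2, beside 31.3% and 31.0%. At 20 against 10 months 9 fell and 2 rose as deposited, beside 53.3% and 11.4%. With that scaling 2 fell and 5 rose there, beside 25.8% and 26.7%. Neu1, the sialidase that removes terminal sialic acid, had 20.2, 21.8 and 20.7 FPKM at 2 months, 13.1, 13.2 and 14.5 at 10 months and 8.29, 8.11 and 7.68 at 20 months. Glb1, the galactosidase that acts after it, had 79.8, 78.3 and 78.0 FPKM at 2 months, 53.1, 52.0 and 56.4 at 10 months and 31.1, 30.9 and 28.3 at 20 months. The 3 ages did not overlap in either gene, and from 2 to 20 months Glb1 fell by 1.36 ± 0.045 (SE, adjusted p = 6.28e-08) and Neu1 by 1.28 ± 0.053 (SE, adjusted p = 1.77e-07) on the log2(FPKM + 1) scale. Fuca1, which removes fucose, was at 68.5 ± 1.48 FPKM at 2 months (mean ± SD, n = 3), 58.7 ± 0.885 at 10 months and 51.1 ± 0.556 at 20 months. Bone markers, led by Acp5, declined over the same ages, as given above, and their part in these falls was not tested.

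Of 15 other late glycan enzymes, 10 fell at 20 against 2 months, beside 49.6% of all genes, and limma called 0 higher (0 also at an unadjusted p under 0.05). After median-of-ratios scaling 6 fell and 2 rose there, beside 31.3% and 31.0% of all genes. As deposited, 4 fell and 2 rose at 10 against 2 months, beside 11.4% and 19.0%. Gnptab, which makes the mannose phosphate tag of lysosomal enzymes, was at 9.98 ± 0.0444 FPKM at 2 months (mean ± SD, n = 3), 9.73 ± 0.152 at 10 months and 6.13 ± 0.0293 at 20 months. The sialyltransferases St3gal2 and St3gal6 were lower already at 10 months. St3gal6 had 26.3, 26.2 and 25.0 FPKM at 2 months, 17.6, 18.1 and 17.5 at 10 months and 19.8, 16.8 and 16.0 at 20 months, a fall of 0.52 ± 0.068 (SE, adjusted p = 6.90e-04) at 10 against 2 months with overlapping values at 10 and 20 months, and St3gal2 fell by 0.26 ± 0.037 (SE, adjusted p = 0.00113) in the same comparison.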
